A study of Sus scrofa with 6 samples.

Results

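The calpain system of pig muscle was read on one-colour Agilent arrays through 17 probes of 7 genes, out of 43603 probes and 3531 named genes. A probe was taken when the files named its gene CAPN1, CAPN2, CAPN3 or CAST or when its description held the word calpain or calpastatin, which added CAPNS1, CAPN7 and CAPN10. There were 3 arrays of longissimus dorsi muscle (LDM), a glycolytic muscle of the back, and 3 of psoas major muscle (PMM), an oxidative muscle of the loin. All samples came from unrelated female Landrace pigs, reared on 1 diet without further treatment and slaughtered at 210 days of age, 3 pigs in all by the study's methods, with both muscles taken from each. The labels number the arrays of each muscle from 1 to 3 and do not say that a number stands for a pig. They name the tissue as muscle, whereas their text on RNA extraction names adipose tissue.

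Calpains are cysteine proteases of the cytosol that are switched on by calcium. CAPN1 (mu-calpain) and CAPN2 (m-calpain) are the large subunits of the classical calpains and share the small subunit CAPNS1, while CAPN3 is the form found mainly in skeletal muscle, where it is bound to titin. CAST encodes calpastatin, the endogenous inhibitor of the classical calpains. In meat, cleavage of myofibrillar proteins by calpains after slaughter is known to make muscle tender, and calpastatin is known to slow it. RNA levels do not measure protease activity.

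Some of the 60-base probes show what each gene's values rest on. CAPN1 and CAPN3 were each read by 1 probe. They are shown because the genes are related in sequence, and capitals mark the bases that both probes share when aligned without gaps. The CAPN1 probe is printed up to the stop codon that ends its open frame.
CAPN1 probe, start 2763: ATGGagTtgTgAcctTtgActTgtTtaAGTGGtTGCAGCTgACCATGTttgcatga
CAPN3 probe, start 2440: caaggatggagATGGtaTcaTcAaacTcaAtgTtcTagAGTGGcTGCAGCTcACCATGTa
Over the 49 bases that overlapped, 30 were identical, and the longest unbroken match was 7 bases. Each start is the position of the probe in its transcript as the files give it. The files name no genome build for it, so no genome coordinates are printed.

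The CAPNS1 probes are shown because they fell into 2 pairs, described further on. The probes at starts 718 and 810 listed accessions of CAPNS1 alone, whereas those at starts 1272 and 1465 also listed an accession of GPX3, a secreted glutathione peroxidase. Of the latter only the first 30 bases are printed.
CAPNS1 probe, start 718: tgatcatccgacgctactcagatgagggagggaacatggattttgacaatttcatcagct
CAPNS1 probe, start 810: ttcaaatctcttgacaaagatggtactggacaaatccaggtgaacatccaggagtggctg
CAPNS1 probe, start 1272: atgtgcatgcgtgcctacaggtgtgtgtga
CAPNS1 probe, start 1465: aggaaaaaaccagttctagattcaattggt

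The brightest probes of CAPN2 and CAST both held AATAAA, the usual polyadenylation signal, here in capitals within 30 bases of each. For contrast, the CAPN2 probe with the lowest start is printed whole.
CAPN2 probe, start 3088: catgtactgttcAATAAAgagtcgcccagg
CAST probe, start 3975: cactaccaagaaAATAAAcacttttcctga
CAPN2 probe, start 666: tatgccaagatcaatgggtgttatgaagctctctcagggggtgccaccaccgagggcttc
The motif was searched on the printed strand only. It was found in 2 of the 17 probes and in 12.1% of all probes on the array (5279 of 43603).

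All 17 probes were well above background on all 6 arrays and none was saturated or marked as an outlier, so all were tested. Over all non-control spots, 58.5% to 72.4% per array were well above background. Levels are given as log2 of the background-corrected intensity, from which the 75th percentile of all spots on that array was subtracted. On this scale 0 is a spot brighter than 75% of the spots of its array, and each unit is a doubling. A probe's brightness depends on its own sequence and position, so levels are compared between arrays for 1 probe and not between genes.

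None of the 17 probes passed the limma test of PMM against LDM over all 25835 probes tested, which called 8 probes or 0.031% (adjusted p below 0.05, with the smallest adjusted p of the 17 at 1.0). With the replicate number as a block the test called 17 probes or 0.0658%, and again none of the 17 calpain and calpastatin probes (adjusted p from 0.435 to 0.992). At an unadjusted p below 0.05 there were 0 of the 17 without the block, beside 2.63% of all probes, and 1 of the 17 with it, beside 11.1%. The LDM and PMM values of every one of the 17 probes overlapped, beside 5.94% of all probes whose values did not. By the mean, 15 of the 17 were lower in PMM, beside 55.8% of all probes, but CAPN10 at starts 399 and 962 became higher after normexp background correction and the other two, CAPN7 and CAPNS1 at start 810, became lower under median centring. The log2 differences ran from -0.50 to 0.04 with a median of -0.23, while the median of all tested probes was -0.04. The probes of a gene share their RNA, so these counts do not stand for 17 independent measurements.

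**Figure D1:**
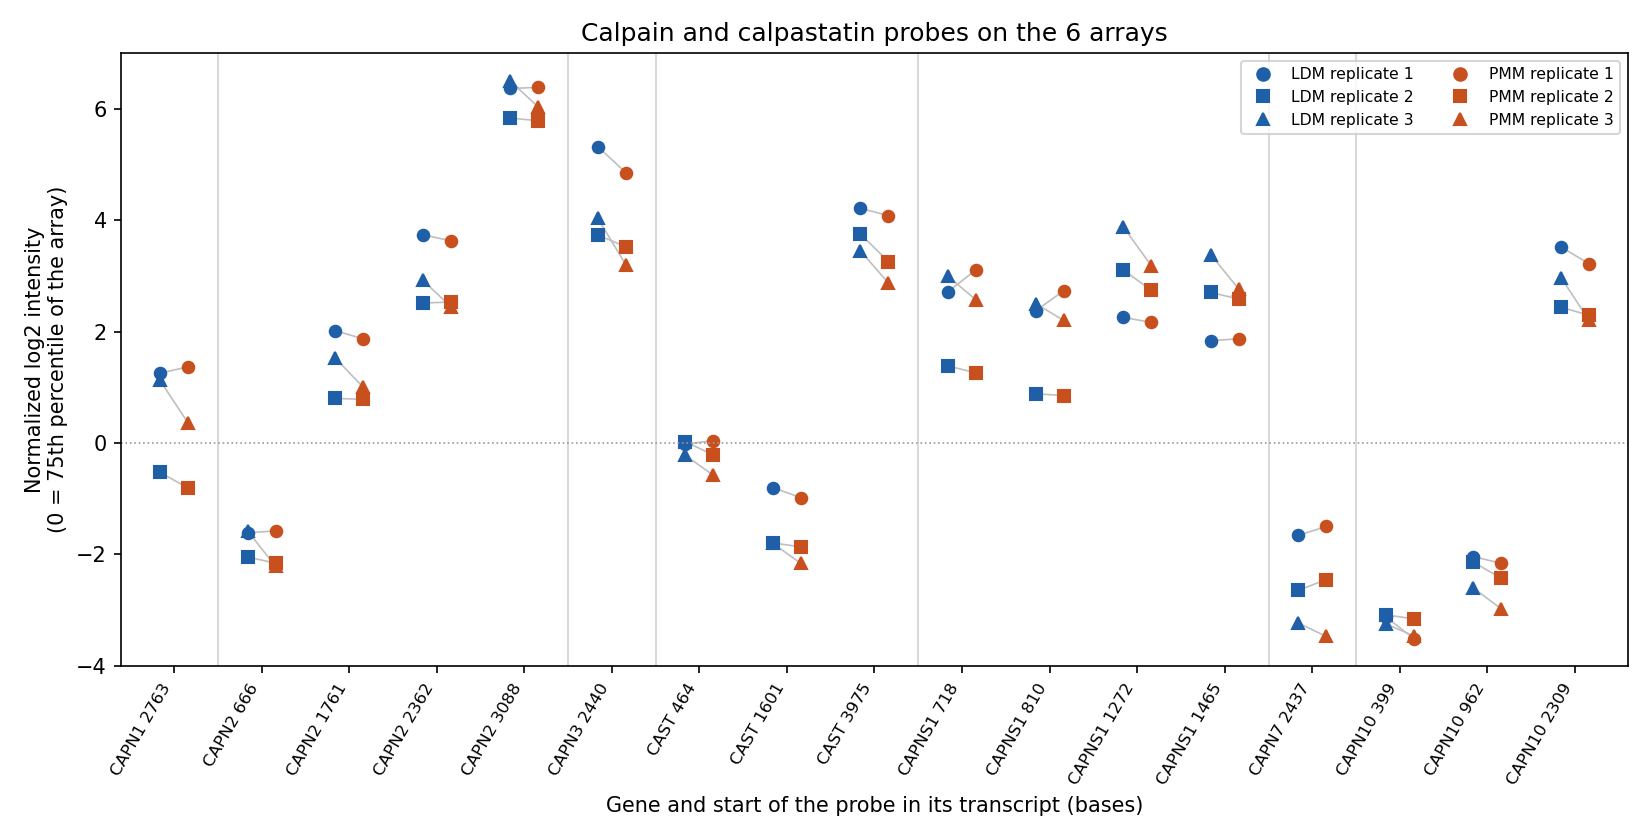
Normalized log2 intensity of the 17 calpain and calpastatin probes on the 6 arrays, with 0 at the 75th percentile of the array. Each symbol is 1 array, blue for LDM and orange for PMM, shapes give the replicate number and grey lines join arrays of the same number. In every column the blue and orange symbols overlap in height, and the range of the replicate means exceeds the difference between the muscle means.

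CAPN3, the muscle calpain, had the largest difference of the 17 probes. Its level was 5.32, 3.73 and 4.03 on LDM arrays 1, 2 and 3 and 4.85, 3.52 and 3.20 on the PMM arrays. PMM was below LDM within each of the 3 replicate numbers, by -0.47, -0.21 and -0.83, but array 1 of PMM was higher than arrays 2 and 3 of LDM. The LDM mean was 4.36 ± 0.84 (SD, n = 3) and the PMM mean 3.86 ± 0.88 (SD, n = 3). Between them the log2 difference was -0.50 ± 0.55 (SE), a level 1.42-fold lower in PMM with a 95% interval from 0.59-fold to 3.40-fold. limma gave an adjusted p of 1.0. With the replicate block the 95% interval of the log2 difference was -0.99 to -0.02, the unadjusted p was 0.044 and the adjusted p 0.435, and in the gene-level fit with the block the adjusted p was 0.171. Leaving out each array in turn moved the difference between -1.0 and -0.02, the latter without LDM array 1 but with PMM array 1 kept. Such shifts also carry the difference between replicate numbers.

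CAPN1, the large subunit of mu-calpain, varied more between replicate numbers than any other of the 17 probes. It was read by 5 spots of 1 probe per array, and these spots differed with a coefficient of variation of 1.95% to 5.20%. The level was 1.25, -0.53 and 1.12 on the LDM arrays and 1.37, -0.81 and 0.36 on the PMM arrays. Both arrays of replicate number 2 were the lowest, and the mean over both muscles spanned 1.98 log2 units between replicate numbers, a 3.94-fold range. In intensity, the mean of the 5 spots went from 454 on PMM array 2 to 1617 on LDM array 1. PMM was below LDM by a log2 difference of -0.31 ± 0.64 (SE), with a 95% interval from -1.78 to 1.16 and a limma adjusted p of 1.0. Within replicate numbers 1, 2 and 3, PMM minus LDM was 0.12, -0.28 and -0.76. The difference between the means was 0.01 without LDM array 1 and 0.25 without PMM array 2. These 2 fits kept the other array of the same number, so their values also carry the difference between replicate numbers.

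CAPN2, the large subunit of m-calpain, was read by 4 probes along its transcript. The brightest, at start 3088, had levels of 6.37, 5.83 and 6.50 in LDM and 6.39, 5.79 and 6.03 in PMM. Replicate numbers 1 and 2 were nearly level between the muscles, and LDM array 3 was the highest of the 3 LDM arrays. The log2 difference was -0.17 ± 0.33 (SE), with a 95% interval from -0.92 to 0.59 and a limma adjusted p of 1.0. It was -0.36 after normexp background correction and -0.02 without PMM array 2, with LDM array 2 kept.

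The 4 CAPN2 probes gave like differences between the muscles although their brightness was far apart. In intensity, the probe at start 666 lay between 147 and 222 and the probe at start 3088 between 43820 and 59649. From the lowest to the highest start, the log2 differences were -0.24, -0.23, -0.19 and -0.17, each with an SE between 0.32 and 0.45. Across the 6 arrays, Pearson's r between the 4 probes ranged from 0.75 to 0.96 in the 6 pairs of probes. As a description, the median r of 1986 pairs of probes of the same named gene on the array was 0.88. Brightness rose with the start of the probe, and in 477 of 703 RefSeq transcripts with several tested probes (67.9%) the brightest probe was the one with the greatest start. These transcripts had 2 or more tested probes, and the share that would arise without any link to position was not computed.

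CAST, the inhibitor, was read by 3 probes, and all 3 were lower in PMM by the mean. The brightest, at start 3975, had levels of 4.21, 3.75 and 3.45 in LDM and 4.08, 3.26 and 2.87 in PMM. PMM was below LDM within each replicate number, by -0.13, -0.49 and -0.57, but the groups overlapped. The log2 difference was -0.40 ± 0.40 (SE), 1.32-fold lower in PMM with a 95% interval from 0.70-fold to 2.47-fold. limma gave an adjusted p of 1.0 without the block and 0.501 with it. The probe at start 464 had levels of -0.02, 0.02 and -0.22 in LDM and 0.05, -0.21 and -0.58 in PMM, a log2 difference of -0.17 ± 0.30 (SE). The probe at start 1601 had a log2 difference of -0.20 ± 0.43 (SE), with PMM below LDM within each replicate number. That difference turned to 0.13 without LDM array 1 and 0.04 without PMM array 3, with the other array of that number kept. Across the 6 arrays r between the 3 probes was 0.73, 0.90 and 0.93.

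The probe at start 3975 was designed on another CAST accession than the other two. Its difference lay 0.23 log2 units below that of the probe at start 464 and 0.20 below that of the probe at start 1601. Against the probe at start 464 the gap was -0.20, -0.26 and -0.22 within the 3 replicate numbers, and against the probe at start 1601 it was 0.05, -0.42 and -0.21. These gaps are a description and have no test.

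**Figure D2:**
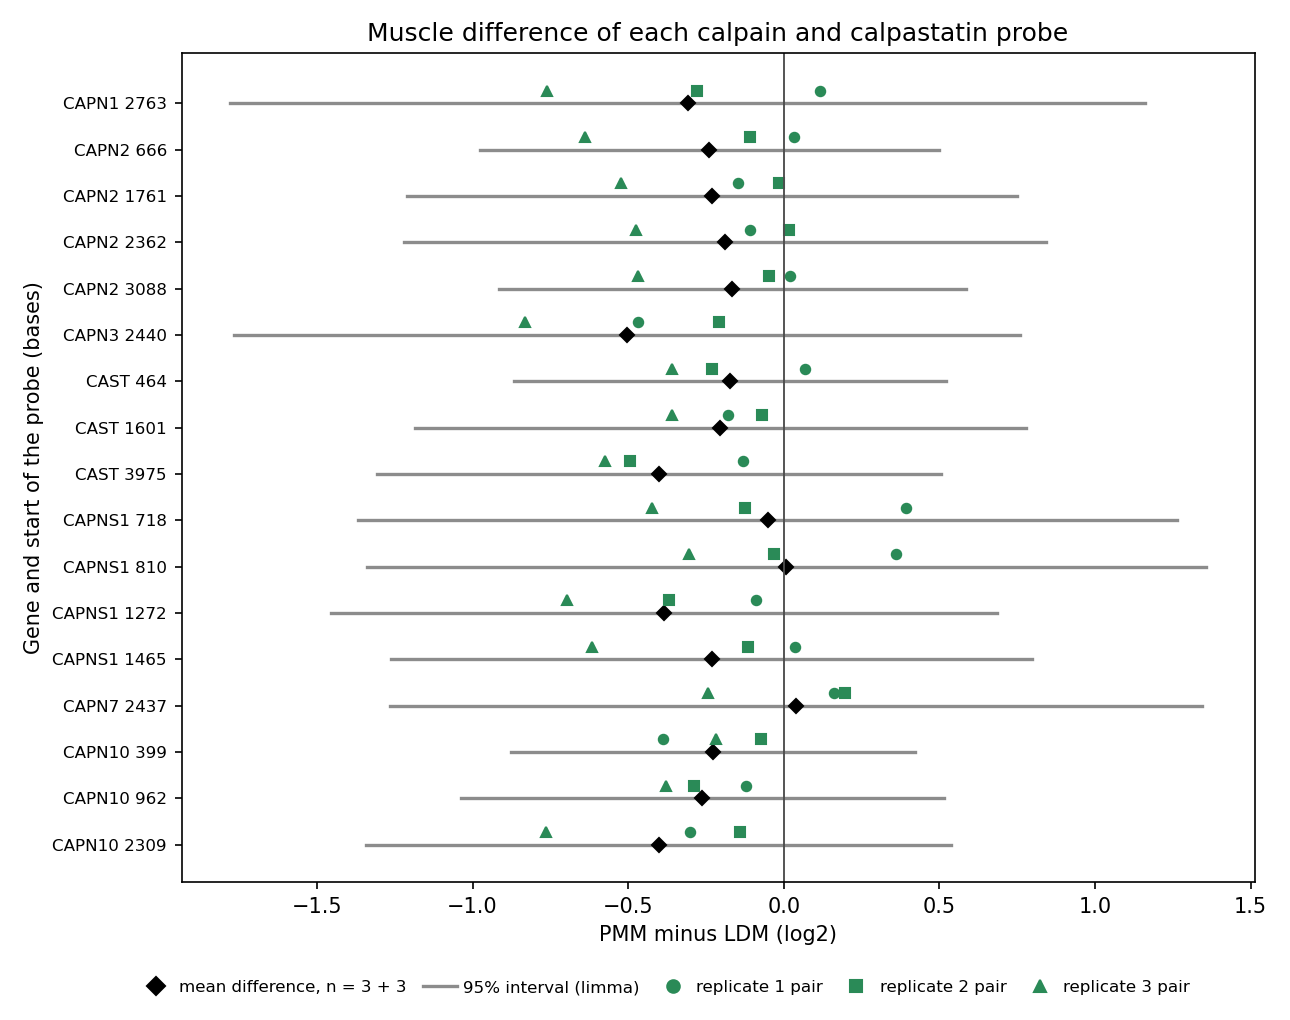
Difference of PMM minus LDM in log2 units for each of the 17 probes, with the mean difference as a black diamond, its 95% interval from limma as a grey line and the differences within replicate numbers 1 to 3 as green symbols. Every interval includes 0, the replicate 3 pair (triangles) is below 0 for all 17 probes, and the directions of CAPN7, CAPNS1 at start 810 and CAPN10 at starts 399 and 962 turn with other scaling or background correction.

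CAPNS1, the shared small subunit, gave 2 different patterns over the arrays. The probe at start 718 had levels of 2.72, 1.38 and 2.99 in LDM and 3.11, 1.26 and 2.57 in PMM, and both arrays of replicate number 2 were the lowest. The probe at start 810 followed it with 2.37, 0.88 and 2.51 in LDM and 2.73, 0.85 and 2.20 in PMM (r = 0.997 over the 6 arrays). The 2 probes that also list GPX3 had their lowest values on the arrays of replicate number 1 instead, while all 4 probes were above their own means on both arrays of replicate number 3. The probe at start 1272 had 2.26, 3.11 and 3.88 in LDM and 2.17, 2.74 and 3.19 in PMM, and r with the probe at start 1465 was 0.98. Between the 2 pairs r was from -0.21 to -0.05, whereas 7.85% of all pairs of probes of 1 named gene had an r below 0.

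These r values describe 6 arrays in which the arrays of 1 replicate number share a scan day, and they carry no test. No other probe on the array listed an accession of GPX3, so which transcript the probes at starts 1272 and 1465 read was not tested. With each probe centred on its own mean, probes of the 2 pairs stood up to 1.53 log2 units apart on the same array. None of the 4 probes passed the test between the muscles, with log2 differences of -0.05, 0.01, -0.39 and -0.23 from the lowest to the highest start (limma adjusted p of 1.0 for each). Values for CAPNS1 as a gene therefore depend on which pair is read, and the brightest probe was one of the pair that lists GPX3.

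**Figure D3:**
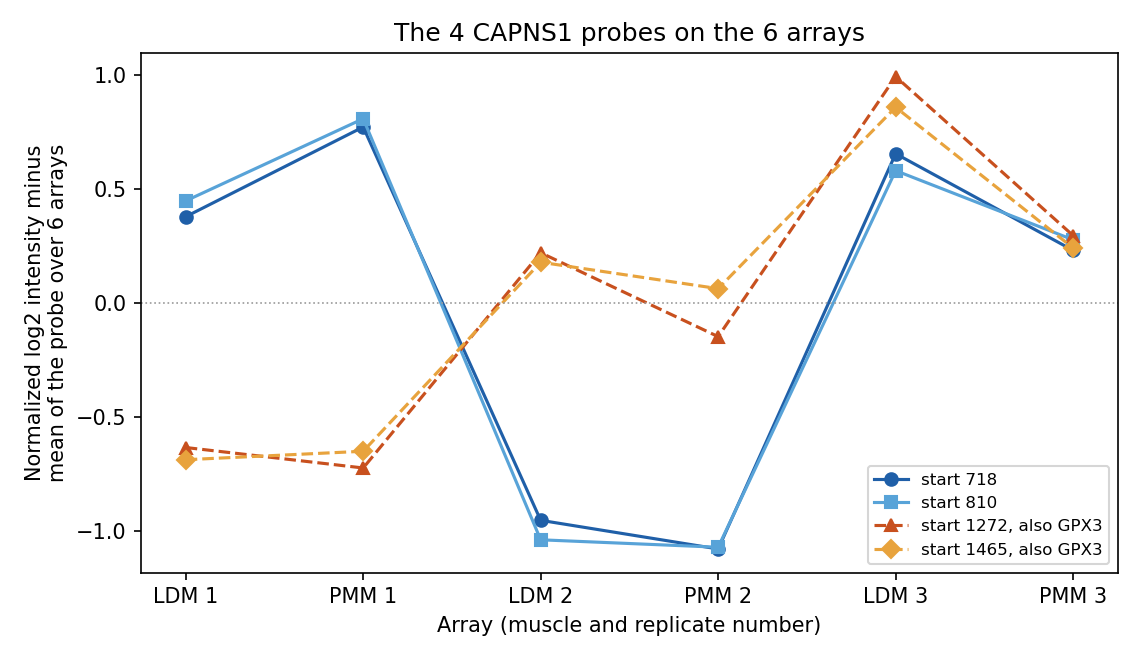
Normalized log2 intensity of the 4 CAPNS1 probes on the 6 arrays, each minus its own mean over the arrays, with arrays ordered by replicate number. Solid lines are the probes that list CAPNS1 alone and dashed lines those that also list GPX3. The solid lines are lowest at replicate number 2 and the dashed lines at replicate number 1.

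The large subunits went with the CAPNS1 probes at starts 718 and 810 over the arrays. For CAPN1, r with these probes was 0.97 and 0.97, and for the brightest CAPN2 probe it was 0.93 and 0.92. With the probes that also list GPX3, r was -0.18 and -0.30 for CAPN1 and -0.01 and -0.12 for CAPN2. CAPN3 and CAST had r of 0.53 and 0.27 with the probe at start 718, and 0.55 and 0.27 with that at start 810. With the probes that also list GPX3, their r was further below 0, at -0.63 and -0.71 for CAPN3 and -0.62 and -0.69 for CAST. These are likewise descriptions over 6 arrays that share replicate numbers.

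CAPN10 and CAPN7, calpains expressed in many tissues, completed the 7 genes. The brightest CAPN10 probe, at start 2309, had levels of 3.52, 2.44 and 2.97 in LDM and 3.22, 2.29 and 2.21 in PMM. It was lower in PMM within each replicate number, with a log2 difference of -0.40 ± 0.41 (SE) and a limma adjusted p of 1.0. The dimmer CAPN10 probes, at starts 399 and 962, stayed between 52.3 and 200.3 intensity units, with log2 differences of -0.23 ± 0.28 (SE) and -0.26 ± 0.34 (SE) that became 0.24 and 0.05 after normexp background correction. Across the 6 arrays r between the 3 CAPN10 probes was 0.46, 0.01 and 0.61. CAPN7 was read by 1 dim probe, whose level went from -1.66 on LDM array 1 to -3.23 on LDM array 3 and from -1.50 to -3.47 on the PMM arrays of the same numbers. Its log2 difference was 0.04 ± 0.57 (SE), and replicate numbers spanned a 3.42-fold range.

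For 17 of 17 probes the range of the 3 replicate means was larger than the difference between the muscles, near the share of 91% of all probes. That range went from 0.23 log2 units for CAPN10 at start 399 to 1.98 for CAPN1, and it exceeded 1 unit for 11 of the 17. The median over all probes was 0.79. The comparison favours the range, since each replicate mean holds fewer arrays than a muscle mean and a range takes the extremes. It is a description and no test of replicate number. Arrays of the same number were scanned on the same day, so pig and scan day cannot be told apart. The arrays of replicate number 2 also shared a slide, as did those of number 3. Those of number 1 lay on different slides, so there muscle and slide cannot be told apart.

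Within replicate numbers, PMM was below LDM in all 3 pairs for 8 of the 17 probes, beside 19.4% of all probes. The 8 were CAPN3, CAPN2 at start 1761, CAST at starts 1601 and 3975, CAPNS1 at start 1272 and the 3 CAPN10 probes. The pair of replicate number 3 was below 0 for 17 of the 17, beside 58.2% of all probes, and it was the lowest of the 3 pairs for 16. In the pairs of replicate numbers 1 and 2, 9 and 15 of the 17 were below 0, beside 50.8% and 48.8% of all probes. Without PMM array 3 the difference was -0.17 for CAPN3, -0.13 for CAST, -0.15 for CAPN2 and -0.34 for CAPN1. Without LDM array 3 it was -0.67 for CAPN3, -0.58 for CAST, -0.03 for CAPN2 and -0.05 for CAPN1. In each case the other array 3 was kept, so the value also carries the difference between replicate numbers. The pattern of replicate number 3 was seen in the same values that it describes and has no test.

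The balance of protease and inhibitor was taken per array as the level of the brightest calpain probe minus that of the brightest CAST probe. Only its change between arrays can be read, since the offset depends on the probes. CAPN3 is not among the classical calpains that CAST inhibits, so CAPN3 minus CAST compares the genes and not a protease with its inhibitor. CAPN2 minus CAST was 2.15, 2.08 and 3.06 in LDM and 2.30, 2.53 and 3.16 in PMM, higher in PMM within each replicate number by 0.15, 0.45 and 0.10. The means were 2.43 ± 0.54 (SD, n = 3) and 2.66 ± 0.44 (SD, n = 3), and the difference of 0.23 was less than the spread between arrays of either muscle. Without PMM array 3 the difference was -0.01, a value that keeps LDM array 3 and so also carries the difference between replicate numbers. With all probes of each gene averaged the difference was 0.053.

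CAPN1 minus CAST was -2.96, -4.28 and -2.32 in LDM and -2.71, -4.06 and -2.51 in PMM. It changed by 0.25, 0.21 and -0.19 within the replicate numbers, and the mean change of 0.09 became -0.05 when all probes of each gene were averaged. CAPN3 minus CAST was 1.11, -0.02 and 0.59 in LDM and 0.77, 0.27 and 0.33 in PMM, changing by -0.34, 0.28 and -0.26. For these 2 balances the pairs did not go 1 way, and the muscles overlapped for all 3. Over all combinations of 1 CAPN2 probe with 1 CAST probe, 7 of 12 balances were higher in PMM and 5 were lower, within a range from -0.07 to 0.23. The CAPN2 balances against the CAST probe at start 3975 lay between 0.16 and 0.23. Those against the CAST probes at starts 464 and 1601 lay between -0.07 and 0.04, so the rise depended on the CAST probe. The 3 CAPN3 balances were all lower in PMM, from -0.33 to -0.10, and the 3 of CAPN1 went from -0.14 to 0.09.

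**Figure D4:**
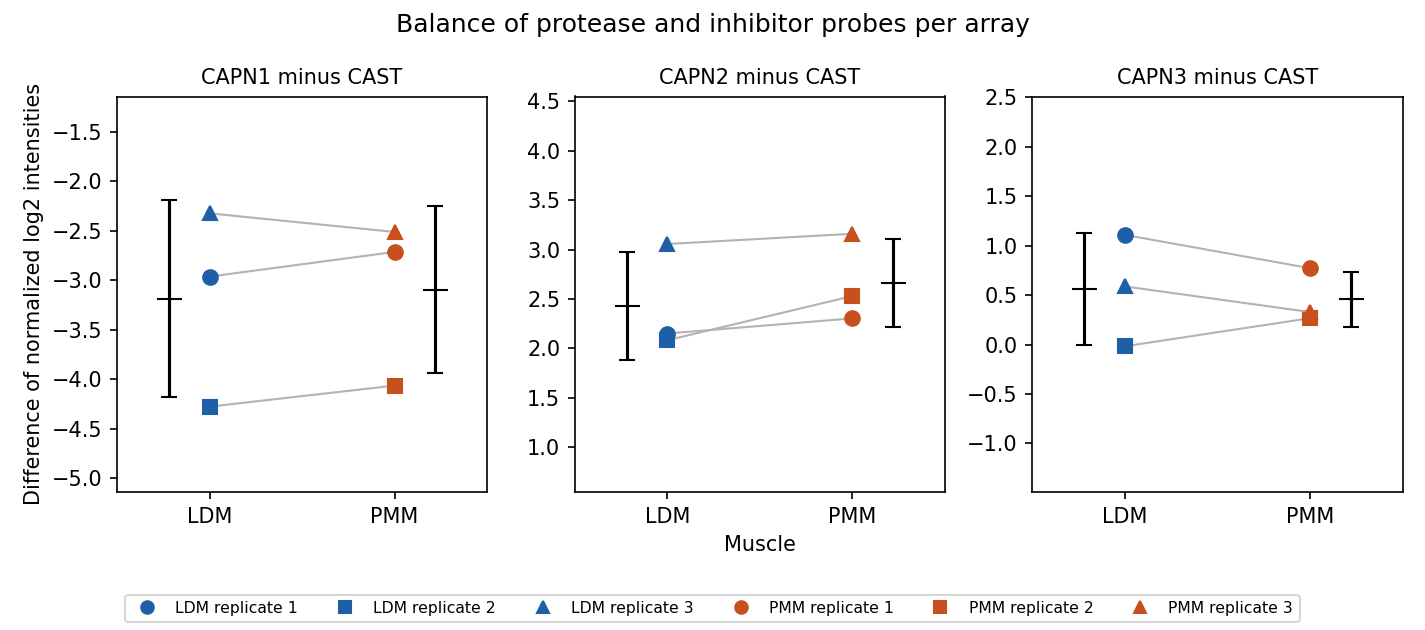
Level of the brightest CAPN1, CAPN2 or CAPN3 probe minus that of the brightest CAST probe on each array, in log2 units, with grey lines joining arrays of the same replicate number. Black bars give the mean and SD of 3 arrays, and each panel spans the same 4 log2 units. The muscles overlap in every panel, and the lines rise for all 3 replicate numbers only for CAPN2. CAST is the inhibitor of the classical calpains, so the CAPN3 panel is not a balance of a protease with its inhibitor.

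A list of 21 proteins of the sarcomere and costamere was taken as calpain substrates, and whether each is cut was not tested. Of these, 10 were named on the array and 9 were tested. By the mean 6 were higher in PMM and 3 lower, 0 passed the limma test without the block (0 also at an unadjusted p below 0.05), and the median log2 difference was 0.14 beside -0.01 over all 2894 genes. ACTN2, alpha-actinin of the Z-disc, had levels of 3.68, 1.79 and 1.66 in LDM and 4.56, 2.75 and 2.32 in PMM. It was higher in PMM within each replicate number, with a log2 difference of 0.83 ± 0.71 (SE) and an adjusted p of 1.0, and it was the 1 gene of the list to pass in the gene-level limma fit with the replicate block (adjusted p = 0.0137), which called 198 of 2894 genes or 6.84%. In the fit over all probes with the same block its adjusted p was 0.218, so the call was lost there. The fast and slow troponin T genes TNNT3 and TNNT1 differed by 0.40 ± 0.34 (SE) and 0.26 ± 0.31 (SE) and did not pass. The other 6 tested lay between -0.21 and 0.16.

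Of 15 listed partners of CAPN3 and proteins of membrane repair, 4 were named and tested, and 0 passed in limma without the block, with it or in the gene-level fit with it (0 at an unadjusted p below 0.05 without the block). ANXA2, an annexin of membrane repair, had a log2 difference of -0.31 ± 0.40 (SE), and RYR1, the calcium release channel of the sarcoplasmic reticulum, one of -0.27 ± 0.64 (SE). CAV3, the muscle caveolin, had one of 0.12 ± 0.37 (SE), fitted without PMM array 2, where its spot was an outlier. The median of the 4 was -0.16.

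The genes with the pattern most like each calpain were sought by Pearson's r over the 6 arrays among 2880 genes. CAPN1 was nearest to ITPK1 (0.996), JPT2 (0.992) and FTO (0.990). CAPN2 was nearest to RAMP1 (0.992), SF3A1 (0.991) and SKIV2L (0.989), and CAPN3 to VLDLR (0.994), MSRA (0.992) and RTFDC1 (0.992). CAST was nearest to LOC100156657 (0.994), TRIM8 (0.983) and PSMC1 (0.981). Between 76 and 209 genes had an r above 0.9 with each, so these names are the top of long lists over arrays that share replicate numbers.

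Markers of the muscle and of other cells were checked beside these values. Averaged over the 9 tested skeletal muscle genes, the level was between 7.66 and 8.83 on every array, and 1 of them, the myoglobin gene MB, rose in PMM in the gene-level fit with the block. The 8 slow fibre genes were all higher in PMM by the mean (in limma 0 passed without the block, where 3 had an unadjusted p below 0.05, and 3, TNNI1, MYOZ2 and TPM3, in the gene-level fit with it). Of the 8 fast fibre genes tested, 4 were higher and 4 lower in PMM, with a median log2 difference of 0.02. In the same fits 0 of the fast fibre genes passed. The 5 fibroblast genes were all lower in PMM, with mean levels of 0.96 to 2.05 in LDM and 0.08 to 1.03 in PMM, and 6 of 7 adipocyte genes were lower, with 2.73 to 3.51 in LDM and 2.09 to 3.22 in PMM. The 6 endothelial genes were all higher in PMM, with 1.41 to 2.90 in LDM and 2.21 to 3.00 in PMM. In the gene-level fit with the block, 3 of the 5 fibroblast genes (POSTN, COL1A2 and COL1A1) and 2 of the 7 adipocyte genes (PLIN1 and CIDEC) fell in PMM and 1 of the 6 endothelial genes (ENG) rose. That fit called 6.84% of all genes. In the limma fit over all probes with the same block none of the marker genes passed (lowest adjusted p 0.169, for POSTN), so these calls were lost there. The 2 smooth muscle genes were higher in PMM, the 3 macrophage genes did not go 1 way, and none of 6 erythrocyte genes was named on the array. Calpains and calpastatin are expressed in these cells too, and their part in the values above was not tested. In these bulk samples fewer cells of a type and less RNA per cell cannot be told apart.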

How the data were processed

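Per the labels, total RNA of 3 LDM and 3 PMM samples was labelled with Cy3. The authors deposited linear spot intensity values from Agilent Feature Extraction 10.5.1.1, which subtracts local background and corrects spatial trends without scaling arrays to each other. For their own comparison the authors named the MultiExperiment Viewer and an earlier published workflow, and its normalization and test settings were not used here. The deposited value table held the same intensities to within 0.005 units.

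Control and outlier spots were left out, spots of a probe averaged and log2 intensity taken minus the 75th percentile of the array. A probe was tested when well above background on all 3 arrays of either muscle with at least 2 values per muscle. The muscles were tested against each other with limma (version 3.58.1, R version 4.3.3; lmFit with eBayes), two-sided, with Benjamini-Hochberg adjustment over all probes and a threshold of 0.05, after a check on simulated data. Each gene's value was that of its brightest tested probe. An exact permutation of 3 against 3 arrays cannot go below 0.1. The number of arrays limits the precision. The labels do not tie arrays to pigs, so p-values measure only the spread between these arrays.

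Deviations from the mean of the muscle correlated at 0.62, 0.70 and 0.56 between arrays of the same replicate number and at -0.54 to -0.01 between others. The 3 deviations of a muscle cancel out, so a positive r within numbers makes the others negative on average. Arrays of 1 number were treated as pairs in the fits with the replicate block and in the differences within replicate numbers. The main fit was unpaired, as were the SEs and intervals given without mention of a block. Gene names came from a RefSeq table of the Sscrofa11.1 assembly, matched by accession or gene number, or else from the files, and 38450 probes had no name. Named were all probes of the system, of each pathway list the 3 genes with the largest change, and the 3 genes most like each calpain gene and CAST. Marker genes were named only where they passed a test. The members and lists were chosen with earlier results of these data known. Alternatives covered blocks, scaling, background correction, filters, outlier spots, the value table, the mean of all probes, a gene-level fit and leaving out each array.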

Additional observations from a re-analysis of the deposited data

How the results depend on the processing

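The 17 probes had 290 alternative values of the log2 difference, of which 0 were called (limma, lowest adjusted p 0.171) and 27 changed sign. Many of the 290 could not change sign. The replicate block, the filters and the gene-level fits keep the difference of a probe by design. Keeping outlier spots or taking the value table left it the same or nearly so. The share that changed sign is therefore no measure of how stable the directions were. With the replicate block, which pairs the arrays by number, limma called 17 probes in place of 8, and with the slide as a random block 300, in both cases without a calpain or calpastatin probe. It called 1 probe after normexp and 0 with the percentile over detected probes (748 at an unadjusted p below 0.05), without the filter on dim probes (807), with probes well above background on all arrays (575) and with outlier spots kept (675), and 0 to 1 when each array was left out (537 to 1242). The causes were not tested. Normexp moved the median of all probes by 0.14.

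The log2 differences of some probes changed sign. CAPNS1 at start 810 was -0.13 with the slide as a random block, -0.049 with median centring and -0.17 with normexp. CAPN7 was -0.010 with the slide block, -0.011 with quantile normalization and -0.019 with median centring. CAPN10 at starts 399 and 962 was 0.24 and 0.050 with normexp. Each fit without an array kept the other array of its number, so its value also carries the difference between replicate numbers. Leaving out each array gave -0.88 to 0.25 for CAPN1, -0.56 to 0.054 and -0.57 to 0.15 for CAPN2 at starts 1761 and 2362, -0.55 to 0.13 for CAST at start 1601 and -0.45 to 0.54 for CAPN7. For CAPNS1 from the lowest to the highest start it gave -0.54 to 0.47, -0.51 to 0.55, -0.80 to 0.015 and -0.63 to 0.14. The differences of CAPN2, CAPN3 and CAST by their brightest probes kept their sign, at -0.37 to -0.02, -1.0 to -0.02 and -0.74 to -0.13. The balances moved by less than the SD between arrays in all 42 alternatives, which does not show that they were stable. That SD was larger than the difference between the muscles for each balance, so a change of sign could fall within it. Median centring, the other percentile and the replicate block leave these differences unchanged by design. Leaving out each array gave -0.45 to 0.57 for CAPN1, -0.01 to 0.55 for CAPN2 and -0.39 to 0.17 for CAPN3.

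With 3 arrays per muscle, the 95% intervals of the 17 differences spanned 1.57-fold to 2.77-fold to either side without the block and 1.33-fold to 1.47-fold with the replicate block, before any adjustment for the number of probes.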

Other observations

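The other proteases of muscle stood beside the calpains as follows. Of 19 listed cathepsins, cystatins and lysosomal genes, 10 were tested, 8 were lower in PMM by the mean and 2 higher, and 0 passed the limma test with or without the replicate block (0 also at an unadjusted p below 0.05 without it). The median log2 difference was -0.08 beside -0.01 over all genes. LGMN, the lysosomal asparagine endopeptidase, had levels of 0.33, -0.72 and 0.65 in LDM and -0.20, -0.92 and -0.18 in PMM, and a log2 difference of -0.52 ± 0.43 (SE). CTSK, a cathepsin known for cleaving collagen, differed by -0.50 ± 0.36 (SE) and CTSH by -0.39 ± 0.45 (SE). All 3 were lower in PMM within each replicate number.

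Of 19 listed caspases and their regulators, 7 were tested, 5 were lower in PMM by the mean and 2 higher, and 0 passed in the same fits (0 at an unadjusted p below 0.05 without the block). The initiator caspases CASP10 and CASP8 differed by -0.37 ± 0.42 (SE) and 0.27 ± 0.44 (SE), and BIRC5, the inhibitor of apoptosis known as survivin, by -0.25 ± 0.36 (SE).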
